A study of Homo sapiens with 9 samples.

Results

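CLU encodes clusterin, also called apolipoprotein J, a secreted glycoprotein that acts as a chaperone outside the cell. The gene was 1 of 58929 in the deposited count table and 1 of 16065 with enough counts to be tested. It was selected on the values described here, its counts in the 9 libraries, as a gene that stood higher with 1 of 2 inhibitors of CDK7 than with the other. Its own levels and fold changes are therefore given as a description with their errors, and no test is attached to them.

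RNA sequencing measured poly(A)-selected transcripts of FaDu, an established cell line of head and neck squamous cell carcinoma (HNSCC) from the hypopharynx. The cells received YKL-5-124 at 250 nM, samuraciclib at 250 nM or the vehicle DMSO, with 3 biological replicates in each of the 3 groups. Each compound is an inhibitor of CDK7, a kinase that activates the cell cycle CDKs and, as part of TFIIH, phosphorylates RNA polymerase II. YKL-5-124 binds the kinase covalently and samuraciclib does not. Treatment lasted 48 h by the treatment protocol and 72 h by the design text of the series, and the text of the study also gives 48 h. The labels give the same batch for all libraries, and the experiment is limited to 1 cell line, 1 dose of each compound and 1 time, so equal concentration does not mean equal inhibition of the kinase.

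Clusterin is made in the secretory pathway as a precursor, which is linked by disulfide bonds, glycosylated and cleaved by furin-type convertases into an alpha and a beta chain. Outside the cell it keeps unfolded proteins soluble without using ATP, and it travels on high density lipoprotein, restrains the terminal complement complex and is taken up with its cargo by receptors of the LDL receptor family, which deliver it to lysosomes. Forms of clusterin found inside cells bind BAX and the Ku70 subunit of Ku, encoded by XRCC6. In epithelia and their tumours CLU is known as a stress-inducible gene whose promoter responds to the heat shock factor HSF1 among others, and as a gene linked to survival under treatment.

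The 9 libraries held between 18096180 and 28018126 counts. Values are given as CPM, counts per 1000000 counts of the library after correction of the library sizes with TMM (the trimmed mean of M values), and the scaling factors were 1.04 to 1.05 in YKL-5-124 libraries, 0.992 to 1.01 in samuraciclib libraries and 0.949 to 0.967 in DMSO libraries. In 3 libraries, 1 of each group (YKL-5-124 2, samuraciclib 2 and DMSO 3), RN7SL2, a gene of the 7SL RNA, had 546 to 1575 counts, against 12158 to 19250 counts in the other 6. Genes are described as called if edgeR's quasi-likelihood test gave a Benjamini-Hochberg adjusted p under 0.05 over all 16065 genes together with a log2 fold change of more than 0.5 in either direction. All adjusted p-values below come from that test, two-sided, and errors of log2 fold changes are standard errors. The labels call the samples biological replicates without saying more, so p-values measure the spread between these samples.

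CLU had 3157, 4186 and 3645 counts in the YKL-5-124 libraries, 1412, 1496 and 1411 counts in the samuraciclib libraries and 924, 1051 and 1623 counts in the DMSO libraries. Scaled to a common library size this gave 164, 164 and 177 CPM with YKL-5-124, 66.1, 68.2 and 72.5 CPM with samuraciclib and 52.9, 56.0 and 61.1 CPM with DMSO. The 3 YKL-5-124 libraries stood apart from the other 6. In bulk RNA, more of a transcript in each cell cannot be told apart from more cells that express it. Samuraciclib libraries lay just above DMSO libraries without overlap, with a gap between the nearest libraries that was smaller than the range within either group. The means were 169 ± 7.63 CPM with YKL-5-124, 68.9 ± 3.29 CPM with samuraciclib and 56.7 ± 4.17 CPM with DMSO (SD, n = 3 each).

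**Figure D1:**
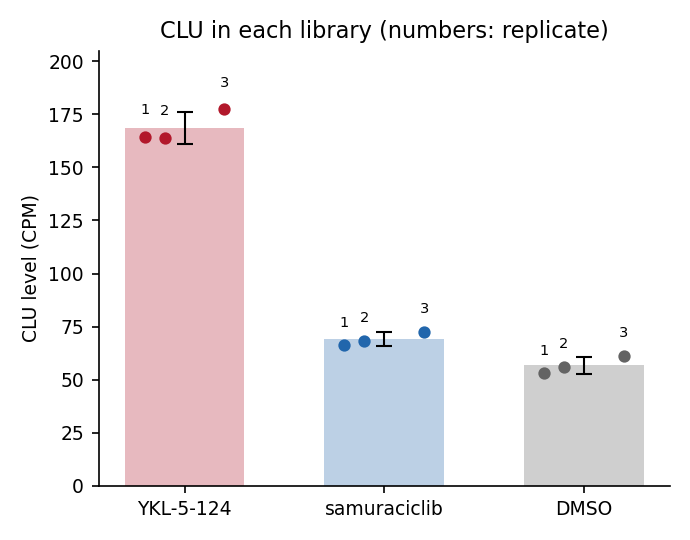
CLU level in CPM (vertical axis, from 0) in each library, with YKL-5-124, samuraciclib and DMSO from left to right. Points are libraries with their replicate number, bars are means of 3 libraries and error bars are 1 SD, and the YKL-5-124 libraries sit at 164 to 177 CPM, above samuraciclib at 66.1 to 72.5 CPM and DMSO at 52.9 to 61.1 CPM.

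The fitted log2 fold change of CLU was 1.57 ± 0.059 for YKL-5-124 against DMSO, a 2.97-fold difference, with a nominal 95% interval of 1.45 to 1.68 on the log2 scale. The intervals come from the SE by a normal approximation and make no allowance for the choice of CLU on these counts. For samuraciclib against DMSO the log2 fold change was 0.28 ± 0.060, a 1.21-fold difference with an interval of 0.16 to 0.40. That estimate was below the fold threshold of 0.5. Between the compounds it was 1.29 ± 0.058 for YKL-5-124 against samuraciclib, a 2.45-fold difference with an interval of 1.18 to 1.40. The order of the levels was thus YKL-5-124, samuraciclib and DMSO, and the closest neighbours in that order were samuraciclib and DMSO, whose means differed by more than their SDs.

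The scatter of the CLU replicates was set beside that of other genes of its level. Its coefficient of variation was 4.53% with YKL-5-124, 4.77% with samuraciclib and 7.36% with DMSO. The medians over 3548 genes whose mean lay between 50 and 200 CPM were 4.42%, 3.99% and 3.83% in the same groups. The scatter was thus near that of its peers with both compounds and above it with DMSO.

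Divided by the 6616 bases of its gene model, CLU stood at 25.5 ± 1.15 CPM per kb with YKL-5-124, 10.4 ± 0.497 CPM per kb with samuraciclib and 8.56 ± 0.630 CPM per kb with DMSO (SD, n = 3 each). Among 12874 protein-coding genes tested, ordered from the highest level per kb, it ranked 1762 to 1882 in YKL-5-124 libraries, 4071 to 4346 in samuraciclib libraries and 4645 to 5076 in DMSO libraries. The gene was thus well expressed in vehicle-treated FaDu cells already, and its rank in samuraciclib and DMSO libraries came close without overlapping.

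The size of the difference can be set against all genes of the same fits, where the median log2 fold change was 0.01 for YKL-5-124 against DMSO, 0.00 for samuraciclib against DMSO and 0.01 for YKL-5-124 against samuraciclib. Of 16065 genes, 260 had a larger log2 fold change than CLU for YKL-5-124 against DMSO, 3768 for samuraciclib against DMSO and 82 for YKL-5-124 against samuraciclib. Most of these had a mean below 10 CPM. Among the 9204 genes that averaged 10 CPM or more, 12 exceeded CLU for YKL-5-124 against DMSO, 1376 for samuraciclib against DMSO and 1 for YKL-5-124 against samuraciclib. Among the 4559 genes that averaged 50 CPM or more, none exceeded it for YKL-5-124 against DMSO or for YKL-5-124 against samuraciclib, while 593 did for samuraciclib against DMSO.

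The 12 genes above CLU for YKL-5-124 against DMSO included 4 histone genes, HIST1H2BJ (2.14), HIST1H4I (2.09), HIST1H2BK (2.04) and HIST2H2BE (1.77, all log2 fold changes). The others were LINC00431 (2.42), CFAP45 (1.93), NANOS1 (1.81), ARSD (1.78), CCDC92 (1.78), HES6 (1.69), AL662795.2 (1.65) and JPH2 (1.60). The gene above CLU between the compounds was SLC6A8, the creatine transporter, at 1.56. These lists follow from the threshold that CLU itself sets and are given without a test.

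**Figure D2:**
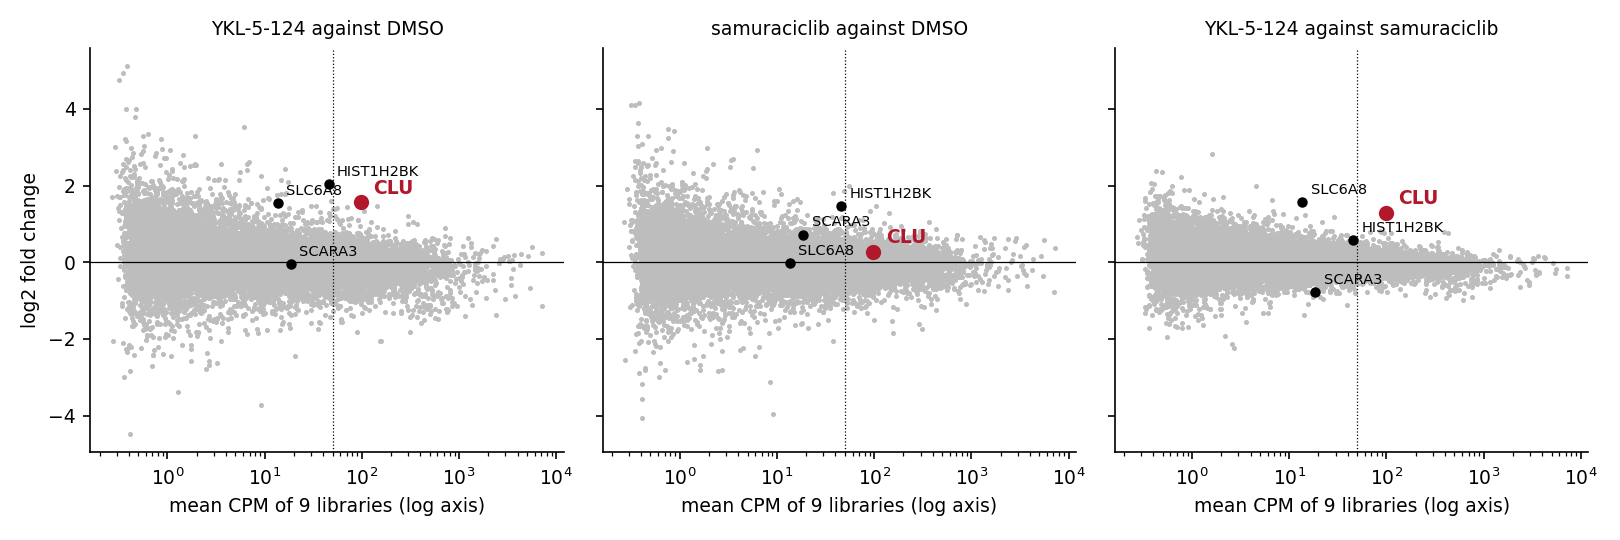
Log2 fold change (vertical axis) against mean CPM of the 9 libraries (horizontal log axis) for the 16065 genes tested, with panels for YKL-5-124 against DMSO, samuraciclib against DMSO and YKL-5-124 against samuraciclib from left to right. CLU is the red point, SLC6A8, HIST1H2BK and SCARA3 are black, the dotted line marks 50 CPM, and to its right no gene lies above CLU in the left and right panels.

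The genes whose profile over the 9 libraries was most like that of CLU were taken as the 10 protein-coding genes with the smallest root mean square difference of log2 CPM after subtraction of each gene's own mean, among 8916 that averaged 10 CPM or more. The measure is 0 for an identical profile, its median over these genes was 0.72, and it was 0.16 for SLC6A8, the closest. Because they were picked for their likeness, their values are descriptions. SLC6A8 had 25.0, 24.6 and 23.3 CPM in YKL-5-124 libraries, 8.14, 7.29 and 9.30 CPM in samuraciclib libraries and 7.96, 8.36 and 8.59 CPM in DMSO libraries. Its YKL-5-124 libraries stood alone, and samuraciclib and DMSO libraries overlapped.

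TLCD1, which encodes a membrane protein of the TLC domain family, came next with a difference of 0.20, and its log2 fold changes were 1.23 ± 0.095 for YKL-5-124 against DMSO, 0.00 ± 0.10 for samuraciclib against DMSO and 1.22 ± 0.095 for YKL-5-124 against samuraciclib. Other gene models, among them that of RPL23A, cover 57.2% of its span. The remaining 8 had differences of 0.27 to 0.32. They were PLPP6, a phosphatase of isoprenoid diphosphates, NANOS1, an RNA-binding protein, TMX4, a thioredoxin-like protein of the endoplasmic reticulum (ER), MYPN, the sarcomere protein myopalladin, DGAT1, which makes triacylglycerol, HIST1H1C, a linker histone, TMEM134 and the secreted protein CRISPLD2. Against samuraciclib, YKL-5-124 gave them log2 values between 0.55 for CRISPLD2 and 0.96 for NANOS1, and against DMSO between 0.89 for DGAT1 and 1.81 for NANOS1. With samuraciclib against DMSO, DGAT1 and TMX4 stood at 0.07 and 0.10, below the 0.28 of CLU, and NANOS1, CRISPLD2 and HIST1H1C at 0.85, 0.77 and 0.76, above it. The boundary of the list was narrow, with CRISPLD2 inside it and FGFR1 just outside it, both at 0.32. Ranked by Pearson correlation instead, which ignores the size of the change, 2 of the 10 genes remained, TMX4 and MYPN.

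**Figure D3:**
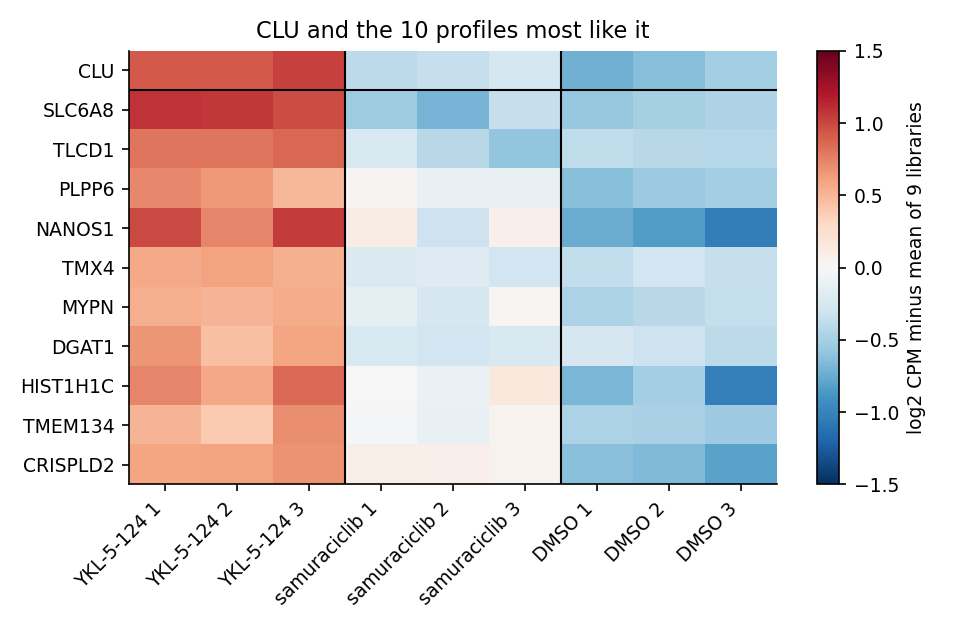
Log2 CPM minus the mean over 9 libraries (colour scale) for CLU in the top row and for the 10 genes most like it below, in order of likeness, with YKL-5-124, samuraciclib and DMSO libraries from left to right. All 11 genes are above their mean in the 3 YKL-5-124 libraries, and the samuraciclib columns of SLC6A8, TLCD1 and DGAT1 resemble their DMSO columns.

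The deposited annotation has no other gene model of clusterin that could share its reads. CLUL1, a clusterin-like gene, had 0 to 5 counts in any library, and MIR6843, which is the only model that overlaps CLU, had 0 counts in all 9 libraries.

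The first partners examined were chaperones of the cytosol, since CLU and these genes share heat shock factor as a known regulator. Of 29 genes on the list of the cytosolic heat shock response, 27 were tested. With YKL-5-124 against DMSO, 9 were called higher and 2 lower, where 11.9% of all genes were called higher and 9.93% lower. With samuraciclib against DMSO, 7 were called higher and 2 lower, against 8.17% and 9.55% of all genes. For YKL-5-124 against samuraciclib, 1 was called higher and none lower, against 4.46% and 2.46% of all genes. The median log2 fold change of the 27 was 0.18, 0.23 and -0.02 in these comparisons.

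HSPA1A, the inducible HSP70 of the cytosol, had 189, 204 and 241 CPM with YKL-5-124, 139, 136 and 159 CPM with samuraciclib and 73.3, 66.6 and 89.4 CPM with DMSO. No group overlapped another, in the same order of groups as for CLU. Its log2 fold change was 1.46 ± 0.095 for YKL-5-124 against DMSO (adjusted p = 6.34e-10), 0.92 ± 0.095 for samuraciclib against DMSO (adjusted p = 4.12e-07) and 0.55 ± 0.091 for YKL-5-124 against samuraciclib (adjusted p = 0.000333). That last call was lost when the library YKL-5-124 3 was left out. Reads of HSPA1A and its near-identical copy HSPA1B (0.69 ± 0.091 for YKL-5-124 against DMSO) may be split between them by the counting, so the values of each are uncertain.

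BAG3, the co-chaperone that hands HSP70 clients to autophagy, had 195, 195 and 220 CPM with YKL-5-124, 185, 176 and 193 CPM with samuraciclib and 107, 108 and 117 CPM with DMSO. It rose with both compounds, by 0.88 ± 0.056 with YKL-5-124 (adjusted p = 4.59e-10) and 0.74 ± 0.056 with samuraciclib (adjusted p = 7.78e-09), and between the compounds it was not called (0.14 ± 0.054, adjusted p = 0.0711). HSPA2, another HSP70, rose by 1.38 ± 0.076 with YKL-5-124 and 1.07 ± 0.077 with samuraciclib, and DNAJB2, an HSP40 co-chaperone, by 1.06 ± 0.066 and 0.81 ± 0.067 in the same order. Between the compounds both fell short of the fold threshold, at 0.31 ± 0.071 and 0.26 ± 0.063. For these 3 genes the samuraciclib value was thus closer to the YKL-5-124 value than it was for CLU. HSPD1, the mitochondrial HSP60, fell by 0.58 ± 0.048 with YKL-5-124 and by 0.51 ± 0.048 with samuraciclib. STUB1, a ubiquitin ligase of misfolded clients, was lower by values near the threshold (-0.51 and -0.53), and both of its calls were lost when single libraries were left out, YKL-5-124 2 or DMSO 2 for the first and samuraciclib 2 for the second. Scaled by library size alone, neither HSPD1 nor STUB1 was called lower with either compound. HSF1 itself was not called, at 0.14 ± 0.060, 0.13 ± 0.060 and 0.01 ± 0.059 in the 3 comparisons.

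Heat shock factor binds inverted repeats of the letters GAA. To show these sites beside the values, RefSeq promoters (250 bases before to 50 after a start, GRCh38.p14) were searched for TTCNNGAA and GAANNTTC, where N is any base. Each of these motifs reads the same on both strands, and occurrences of the motifs can overlap. Among 35116 promoter windows, 7.74% held the first, 6.77% the second and 13.5% either, and among 27305 gene symbols 16.2% had a window with either. CLU itself had no window, so its promoter was not searched. Of the 27 heat shock genes tested, 24 had a window and 15 of these (62.5%) held either motif. Of the 9 called higher with YKL-5-124, 6 did, and these are shown with 16 bases on each side of the motif, which is in capitals, since they are the called genes of this group with these letters. A match is a description of the letters only.
HSPA1A, chr6:31815421-31815460, plus strand: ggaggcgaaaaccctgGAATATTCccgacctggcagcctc
HSPA1B, chr6:31827617-31827656, plus strand: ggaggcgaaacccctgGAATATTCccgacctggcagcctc
HSPA4L, chr4:127782136-127782175, plus strand: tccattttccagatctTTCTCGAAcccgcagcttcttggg
DNAJB4, chr1:78004825-78004864, plus strand: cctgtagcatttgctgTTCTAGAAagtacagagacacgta
HSPB1, chr7:76302475-76302514, plus strand: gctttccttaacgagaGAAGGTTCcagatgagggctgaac
HSPB8, chr12:119178827-119178866, plus strand: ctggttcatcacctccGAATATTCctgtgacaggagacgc

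The motifs lie at -106 to -99 from the start in HSPA1A, -105 to -98 in HSPA1B, -170 to -163 in HSPA4L, -98 to -91 in DNAJB4, -182 to -175 in HSPB1 and -88 to -81 in HSPB8. HSPA1A, HSPA1B and HSPB8 carry the same 8 letters. HSPB1, the small heat shock protein HSP27, had 143, 142 and 192 CPM with YKL-5-124, 115, 98.4 and 129 CPM with samuraciclib and 88.9, 82.1 and 87.6 CPM with DMSO, and rose by 0.88 ± 0.100 with YKL-5-124 (adjusted p = 8.8e-07), whereas the samuraciclib value of 0.40 ± 0.100 was inside the threshold. HSPA4L, an HSP110 relative, went the other way between the compounds, with 0.79 ± 0.086 for YKL-5-124 and 1.01 ± 0.086 for samuraciclib, both against DMSO. DNAJB4, an HSP40, was called only with YKL-5-124 against DMSO (0.59 ± 0.091), and HSPB8, which works with BAG3, had at most 1.15 CPM in any library and calls that were lost when single libraries were left out. These 4 genes were named for their motif after their values were seen.

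The chaperones of the ER, where clusterin folds, held few called genes. All 30 genes on that list were tested, and with YKL-5-124 against DMSO 1 was called higher and 1 lower, with samuraciclib against DMSO none higher and 1 lower, and for YKL-5-124 against samuraciclib 1 higher and none lower. Over all genes 11.9% and 9.93%, 8.17% and 9.55%, and 4.46% and 2.46% were called higher and lower in these comparisons. The medians of the list were 0.03, 0.09 and -0.04. HSPA5, the HSP70 of the ER also known as BiP, was below its DMSO level with both compounds by less than the fold threshold (-0.24 ± 0.047 with YKL-5-124 and -0.35 ± 0.047 with samuraciclib). ERP29, an ER folding factor of secreted proteins, had 67.0, 73.4 and 69.2 CPM with YKL-5-124, 76.1, 76.0 and 87.6 CPM with samuraciclib and 120, 125 and 125 CPM with DMSO, and fell by 0.82 ± 0.058 and 0.63 ± 0.058. ERO1B, an oxidase that drives disulfide formation, was high in YKL-5-124 libraries. It had 12.5, 10.5 and 12.0 CPM with YKL-5-124, 7.02, 5.79 and 6.01 CPM with samuraciclib and 6.75, 6.82 and 6.59 CPM with DMSO, and rose with YKL-5-124 against both samuraciclib (0.89 ± 0.11, adjusted p = 2.75e-05) and DMSO (0.79 ± 0.11, adjusted p = 1.45e-05).

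The convertases that cleave the clusterin precursor comprised 10 genes, of which 8 were tested. With YKL-5-124 against DMSO 2 were called higher and 1 lower, with samuraciclib against DMSO none, and for YKL-5-124 against samuraciclib 1 lower and none higher. These counts among 8 genes stand beside 11.9% higher and 9.93% lower, 8.17% and 9.55%, and 4.46% and 2.46% of all genes in these comparisons. FURIN had 130, 118 and 124 CPM with YKL-5-124, 153, 145 and 157 CPM with samuraciclib and 111, 108 and 110 CPM with DMSO. It was thus highest with samuraciclib, but none of its differences reached the threshold (0.18 ± 0.049, 0.47 ± 0.048 and -0.29 ± 0.048 in the 3 comparisons). PCSK5, another convertase of the secretory pathway, rose by 0.85 ± 0.17 with YKL-5-124 (adjusted p = 0.000411), as did PCSK4, a convertase known from germ cells, by 1.08 ± 0.30 at no more than 1.51 CPM, a call lost in the 6 libraries with ample 7SL RNA (0.83, adjusted p = 0.108).

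Other secreted chaperones and protease inhibitors gave 19 tested genes of 28. With YKL-5-124 against DMSO 6 were called higher and 1 lower, with samuraciclib against DMSO 2 higher and 1 lower, and for YKL-5-124 against samuraciclib 2 higher and 1 lower, with medians of 0.20, 0.05 and 0.17. Over all genes the higher and lower shares were 11.9% and 9.93%, 8.17% and 9.55%, and 4.46% and 2.46% in these comparisons. TIMP3, an inhibitor of matrix metalloproteinases, had 4.84, 4.51 and 5.69 CPM with YKL-5-124, 3.74, 3.01 and 2.83 CPM with samuraciclib and 1.26, 1.97 and 1.70 CPM with DMSO. It rose by 1.59 ± 0.19 with YKL-5-124 against DMSO (adjusted p = 1.59e-06) and by 0.64 ± 0.17 against samuraciclib, a call that was lost without the library YKL-5-124 3, and its whole span lies within the model of SYN3. SERPINE2, which inhibits thrombin and urokinase, rose by 0.54 ± 0.056 with YKL-5-124 and was at 0.48 ± 0.056 with samuraciclib. SERPINA1, alpha-1-antitrypsin, ran against CLU. It had 5.98, 5.33 and 5.50 CPM with YKL-5-124, 9.97, 7.98 and 8.89 CPM with samuraciclib and 9.84, 9.43 and 11.2 CPM with DMSO, and fell with YKL-5-124 by 0.87 ± 0.12 against DMSO and by 0.68 ± 0.12 against samuraciclib.

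Of 33 complement components and regulators, 15 were tested, with 3 higher and 1 lower for YKL-5-124 against DMSO, 2 higher and 2 lower for samuraciclib against DMSO, and 1 higher and none lower for YKL-5-124 against samuraciclib. The shares over all genes were 11.9% and 9.93%, 8.17% and 9.55%, and 4.46% and 2.46%. C3, the central component, had 8.43, 7.76 and 9.05 CPM with YKL-5-124, 5.80, 7.79 and 6.78 CPM with samuraciclib and 4.01, 4.69 and 5.05 CPM with DMSO. It rose by 0.86 ± 0.14 with YKL-5-124 (adjusted p = 4.35e-05) and by 0.56 ± 0.14 with samuraciclib, a call that was lost without samuraciclib 2 or without DMSO 1. CD59, which like clusterin blocks the terminal complex, was above its DMSO level with both compounds by 0.31 ± 0.047 and 0.30 ± 0.047, inside the threshold, and CD55, which disarms the convertases of complement, fell by 0.56 ± 0.073 with samuraciclib, a call lost without samuraciclib 3 or DMSO 2. C1RL, a protease related to C1r, fell by 0.52 ± 0.12 with YKL-5-124, a call lost without YKL-5-124 1 or DMSO 1, and by 0.63 ± 0.12 with samuraciclib. CFP, properdin, rose by 1.66 ± 0.43 and 1.67 ± 0.43 at a mean of 0.83 CPM, and the samuraciclib call was lost in the 6 libraries with ample 7SL RNA (1.11, adjusted p = 0.116).

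On the list of other apolipoproteins, which also holds the lipid handling genes LCAT, PLTP, ABCA1 and ABCG1, 12 of 23 genes were tested. Over all genes 11.9% and 9.93%, 8.17% and 9.55%, and 4.46% and 2.46% were called higher and lower in the 3 comparisons. Of the 12, only APOD was called, with YKL-5-124 against DMSO, at 1.04 ± 0.42 (adjusted p = 0.0473). Its mean was 0.48 CPM, and the call was lost when any 1 of the 9 libraries was left out. APOE, the lipid carrier that shares receptors with clusterin, had 0.624, 0.157 and 0.243 CPM with YKL-5-124, 0.655, 0.684 and 0.771 CPM with samuraciclib and 0.458, 0.479 and 0.264 CPM with DMSO, and was not called.

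The LDL receptor family, with members that take up clusterin, came next. Its list of 20 genes also holds adaptors and other uptake receptors, SCARB1, SCARB2 and SORT1 among them. Of these 20, 14 were tested. None was called higher and 3 lower for YKL-5-124 against DMSO, and none higher and 2 lower for samuraciclib against DMSO. For YKL-5-124 against samuraciclib none was higher and 1 lower. Over all genes 11.9% and 9.93%, 8.17% and 9.55%, and 4.46% and 2.46% were called higher and lower in these comparisons. In the first of them 1 was called higher by library size alone, and likewise in the 6 libraries with ample 7SL RNA. LRP2 (megalin), the receptor best known for clusterin, was below the filter with 3 to 12 counts in any library. VLDLR had 3.02, 2.66 and 3.02 CPM with YKL-5-124, 4.40, 4.56 and 4.88 CPM with samuraciclib and 2.80, 3.68 and 4.45 CPM with DMSO, and fell by 0.67 ± 0.17 with YKL-5-124 against samuraciclib (adjusted p = 0.00723) without a call against DMSO. LRP8, the other apolipoprotein E receptor that binds clusterin, was at -0.25 ± 0.059, -0.11 ± 0.059 and -0.14 ± 0.059 in the 3 comparisons. LRP1, a broad scavenger of chaperone complexes, had 16.2, 14.6 and 15.1 CPM with YKL-5-124, 14.9, 13.6 and 12.1 CPM with samuraciclib and 26.5, 22.6 and 25.2 CPM with DMSO, and fell by 0.69 ± 0.092 and 0.87 ± 0.094 with the compounds. SORL1, a sorting receptor, fell by 0.68 ± 0.059 and 0.60 ± 0.059, and SCARB1, the receptor of high density lipoprotein, by 0.53 ± 0.048 with YKL-5-124, a call lost by library size alone (-0.40) and at a mean count of at least 50 (-0.49).

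Genes of the lysosome, where clusterin and its cargo end, and of aggregate clearance were tested in full (21 of 21). With YKL-5-124 against DMSO 6 were called higher and none lower, with samuraciclib against DMSO 1 higher and none lower, and for YKL-5-124 against samuraciclib 3 higher and 1 lower, with medians of 0.13, 0.04 and 0.09. These counts stand beside 11.9% higher and 9.93% lower, 8.17% and 9.55%, and 4.46% and 2.46% of all genes. The gene called higher with samuraciclib, GABARAPL1, lost its call without DMSO 1. The gene called lower between the compounds, TFEB, lost it in the 6 libraries with ample 7SL RNA (-1.28, adjusted p = 0.066). GAA, the acid alpha-glucosidase, was high in YKL-5-124 libraries while samuraciclib and DMSO libraries overlapped, with 58.6, 60.3 and 60.5 CPM with YKL-5-124, 39.6, 41.1 and 39.3 CPM with samuraciclib and 41.3, 39.3 and 36.8 CPM with DMSO. It rose with YKL-5-124 by 0.62 ± 0.058 against DMSO (adjusted p = 7.8e-08) and by 0.58 ± 0.057 against samuraciclib (adjusted p = 1.62e-06). Neither call held when the test itself required a change beyond 0.5 (glmTreat, adjusted p = 0.0746 and 0.809). NEU1, a sialidase, had 147, 145 and 155 CPM with YKL-5-124, 104, 102 and 108 CPM with samuraciclib and 92.9, 88.1 and 87.9 CPM with DMSO, and rose by 0.73 ± 0.048 against DMSO and by 0.51 ± 0.048 against samuraciclib, a call lost without YKL-5-124 3 or samuraciclib 2. The proteases LGMN (legumain) and CTSB (cathepsin B) rose with YKL-5-124 against DMSO by 0.82 ± 0.043 and 0.64 ± 0.054, and at 0.39 ± 0.043 and 0.37 ± 0.053 against samuraciclib they were inside the threshold.

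**Figure D4:**
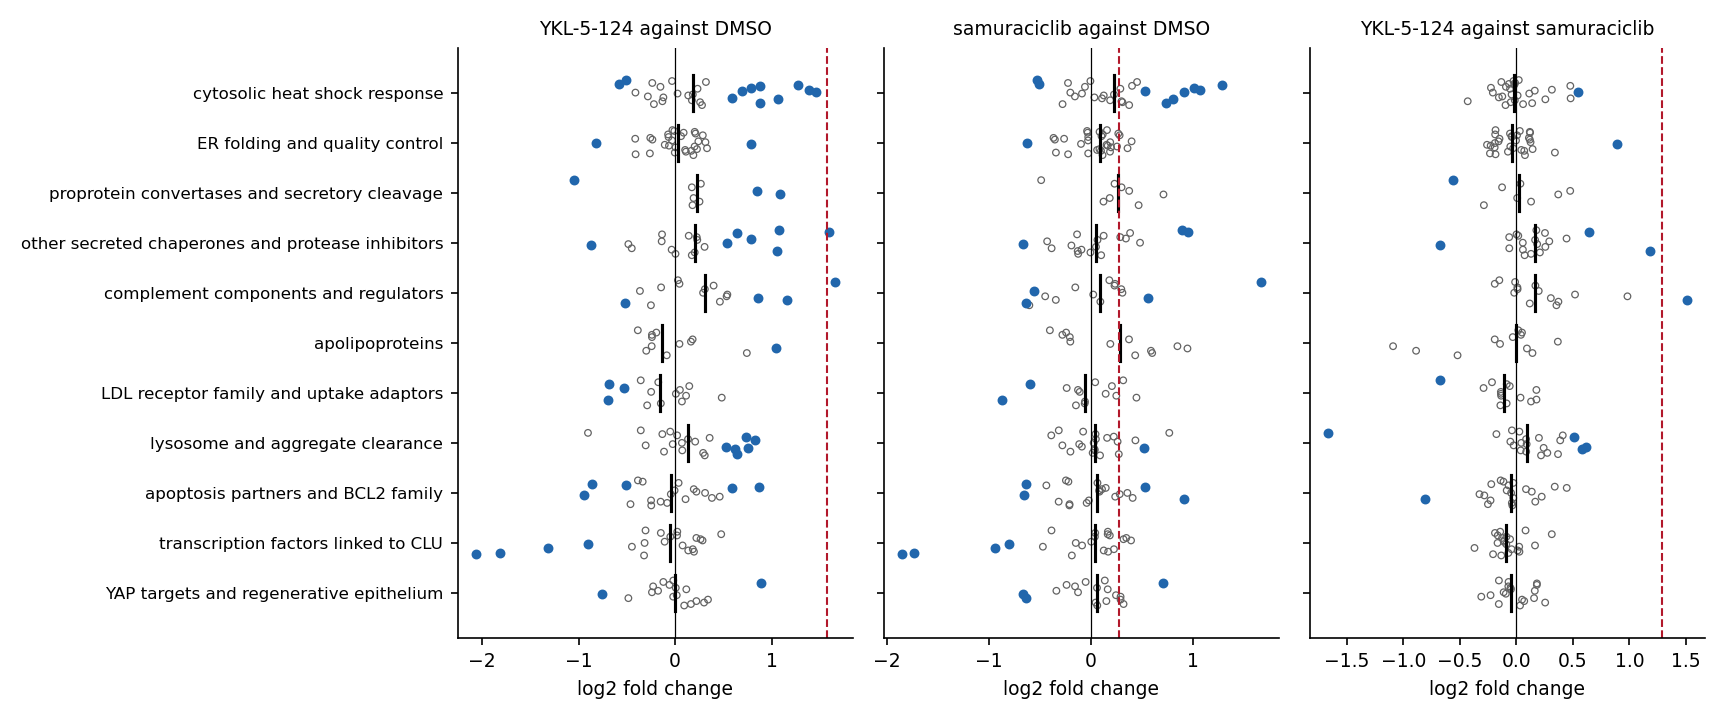
Log2 fold change (horizontal axis) of each tested gene on 11 lists of genes around clusterin, with panels for YKL-5-124 against DMSO, samuraciclib against DMSO and YKL-5-124 against samuraciclib from left to right. Filled blue points were called, open points were not, black bars are list medians and the dashed red line is CLU, which lies beyond nearly all of these genes in the right panel.

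Transcripts of the proteins that clusterin binds inside cells were near or below their DMSO level. BAX, which permeabilises mitochondria, had 94.9, 106 and 109 CPM with YKL-5-124, 87.6, 88.8 and 99.8 CPM with samuraciclib and 111, 116 and 117 CPM with DMSO, and was not called (-0.15 ± 0.059, -0.32 ± 0.060 and 0.17 ± 0.060 in the 3 comparisons). XRCC6 was at -0.39 ± 0.045 and -0.25 ± 0.045 against DMSO, again inside the threshold. Of 23 genes of the apoptosis list 21 were tested, with 2 higher and 3 lower for YKL-5-124 against DMSO, 2 higher and 2 lower for samuraciclib against DMSO and none higher and 1 lower for YKL-5-124 against samuraciclib. All genes gave 11.9% higher and 9.93% lower, 8.17% and 9.55%, and 4.46% and 2.46%. BCL2L2 (BCL-w), an antiapoptotic protein, fell by 0.94 ± 0.052 and 0.66 ± 0.052, and PMAIP1 (NOXA), a proapoptotic one, by 0.86 ± 0.078 and 0.64 ± 0.078 with YKL-5-124 and samuraciclib. MCL1, antiapoptotic, was near the threshold with YKL-5-124 (-0.51 ± 0.051), and that call was lost without YKL-5-124 1, YKL-5-124 2 or DMSO 3. BCL2, antiapoptotic, was high with samuraciclib. It had 4.94, 5.56 and 4.18 CPM with YKL-5-124, 9.17, 7.70 and 8.99 CPM with samuraciclib and 4.35, 5.01 and 4.37 CPM with DMSO, and rose by 0.92 ± 0.14 with samuraciclib against DMSO (adjusted p = 2.31e-05) and fell by 0.81 ± 0.13 with YKL-5-124 against samuraciclib (adjusted p = 0.000276).

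Of 22 transcription factors linked to CLU, 21 were tested and 4 were called lower with YKL-5-124 and 4 with samuraciclib, both against DMSO, with none higher and none called between the compounds. Over all genes 11.9% and 9.93%, 8.17% and 9.55%, and 4.46% and 2.46% were called higher and lower in the 3 comparisons. With both compounds against DMSO the 4 factors called lower were FOS, JUN, EGR1 and MYBL2. Scaled by library size alone, or in the 6 libraries with ample 7SL RNA, 1 factor was called higher with YKL-5-124 against DMSO. EGR1, an immediate early factor known to drive CLU, had 59.8, 69.5 and 92.8 CPM with YKL-5-124, 76.1, 93.2 and 87.2 CPM with samuraciclib and 282, 273 and 373 CPM with DMSO, and fell by 2.06 ± 0.13 and 1.86 ± 0.13. FOS, of the AP-1 complex, fell by 1.81 ± 0.11 and 1.74 ± 0.11, and its partner JUN by 1.32 ± 0.086 and 0.94 ± 0.085. MYBL2, a factor of cycling cells that is known to activate CLU, fell by 0.90 ± 0.048 and 0.81 ± 0.048. MYC, known as a repressor of CLU, was below DMSO by less than the threshold (-0.32 ± 0.053 and -0.15 ± 0.053). SMAD4, which is known to be deleted in FaDu, was the untested member, with 0 counts in all 9 libraries.

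Genes of the YAP and regenerative epithelial programme, in which CLU marks revival stem cells of the mouse intestine, were tested in 18 of 20 cases. With YKL-5-124 against DMSO 1 was higher and 1 lower, with samuraciclib against DMSO 1 higher and 2 lower, and none was called between the compounds. Of all genes, 11.9% were higher and 9.93% lower in the first comparison, 8.17% and 9.55% in the second, and 4.46% and 2.46% between the compounds. EMP1, an epithelial membrane protein, fell by 0.76 ± 0.056 with YKL-5-124 and 0.67 ± 0.056 with samuraciclib, and the receptor kinase AXL fell by 0.64 ± 0.051 with samuraciclib and was at -0.48 ± 0.050 with YKL-5-124. CDK7, the target of both compounds, was not called in any comparison (-0.15 ± 0.058, -0.05 ± 0.058 and -0.11 ± 0.058).

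The cell line label was checked against markers. All 17 squamous epithelial markers were tested, and their summed level was 13100 to 13930 CPM with YKL-5-124, 13910 to 14560 CPM with samuraciclib and 12830 to 13220 CPM with DMSO. Markers of other cells that make clusterin were sparse. Summed CPM was 3.94 to 5.78, 4.87 to 6.12 and 3.81 to 5.43 in the same groups for 9 fibroblast genes, 25.6 to 28.4, 20.1 to 23.8 and 30.0 to 32.1 for 7 endothelial genes, 4.15 to 4.77, 3.24 to 3.79 and 2.69 to 3.73 for 10 leukocyte genes and 1.76 to 2.14, 0.720 to 2.06 and 1.81 to 1.95 for 8 hepatocyte and platelet genes. Of these lists, 1, 2, 1 and 1 genes passed the filter and 1, 2, 2 and 2 genes were at 0 in all libraries. The endothelial markers PECAM1, KDR and TEK and the leukocyte marker PTPRC did not pass it. The endothelial marker CDH5 passed and was called lower with samuraciclib against DMSO (-0.50 ± 0.081). That call was lost without samuraciclib 3 or DMSO 3 and by library size alone (-0.44). The leukocyte marker CD14 was called higher with YKL-5-124 against samuraciclib (0.54 ± 0.18), a call lost without any 1 samuraciclib library. Of 7 astrocyte and Sertoli cell markers 4 were tested, and 1 was called higher with YKL-5-124 against DMSO. Another 1 was lower with samuraciclib against DMSO, and 1 was higher for YKL-5-124 against samuraciclib. Over all genes these shares were 11.9%, 9.55% and 4.46%. The summed level of the 7 genes had the order of CLU, at 50.8 to 53.7 CPM with YKL-5-124, 40.6 to 43.9 CPM with samuraciclib and 34.9 to 35.8 CPM with DMSO. Most of it was the glutamate transporter SLC1A3 (0.62 ± 0.065 for YKL-5-124 against DMSO). ALDH1L1 was at 0.05 ± 0.19 with YKL-5-124 against DMSO and -0.60 ± 0.20 with samuraciclib against DMSO, a call that was lost when samuraciclib 1, samuraciclib 3 or DMSO 1 was left out, and GFAP, AQP4 and DMRT1 did not pass the filter. The part of such cells in the CLU values was not tested.

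CLU lies on GRCh38 chromosome 8 at 27596917 to 27615031 on the minus strand, as the deposited table gives it. In GENCODE 44, an annotation of the same build that ends the gene at 27614700, it has 17 transcripts, and the canonical one has 9 exons and 2749 bases. The counts are sums over exons of the whole gene, so they do not tell the secreted form from other transcripts.

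The neighbours of CLU were examined within 500 kb on each side, which held 28 other gene models, 12 of them protein-coding and 8 of these tested, and 13 models without a count in any library. The nearest tested neighbour, SCARA3, a scavenger receptor-like protein that is induced by oxidative stress, starts 18.8 kb from the start of CLU on the opposite strand, at 27633868 to 27676776. It had 15.6, 13.8 and 15.3 CPM with YKL-5-124, 26.1, 26.7 and 23.5 CPM with samuraciclib and 16.8, 14.8 and 15.0 CPM with DMSO. The samuraciclib libraries were the high ones, and YKL-5-124 and DMSO libraries overlapped, which is the reverse of the pattern of CLU. SCARA3 rose with samuraciclib against DMSO by 0.72 ± 0.087 (adjusted p = 2.53e-06), was at -0.06 ± 0.090 with YKL-5-124 against DMSO (adjusted p = 0.636) and fell by 0.77 ± 0.087 with YKL-5-124 against samuraciclib (adjusted p = 6.54e-06).

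The other 7 tested neighbours, TRIM35, PTK2B, EPHX2, CCDC25, ESCO2, PBK and ELP3, were called in no comparison. Over all genes 11.9% and 9.93%, 8.17% and 9.55%, and 4.46% and 2.46% were called higher and lower in the 3 comparisons. EPHX2, a soluble epoxide hydrolase on the other side of CLU, had the highest log2 value with YKL-5-124 against DMSO, 0.61 ± 0.30 (adjusted p = 0.0989), at no more than 1.25 CPM in any library. The remaining 6 lay between -0.35 and 0.20 in that comparison, between -0.40 and 0.20 for samuraciclib against DMSO and between -0.29 and 0.34 for YKL-5-124 against samuraciclib. No tested gene within 500 kb thus shared the rise of CLU with YKL-5-124 at the call rule used. With 8 tested genes, this says little beside the share of 11.9% called higher over all genes.

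**Figure D5:**
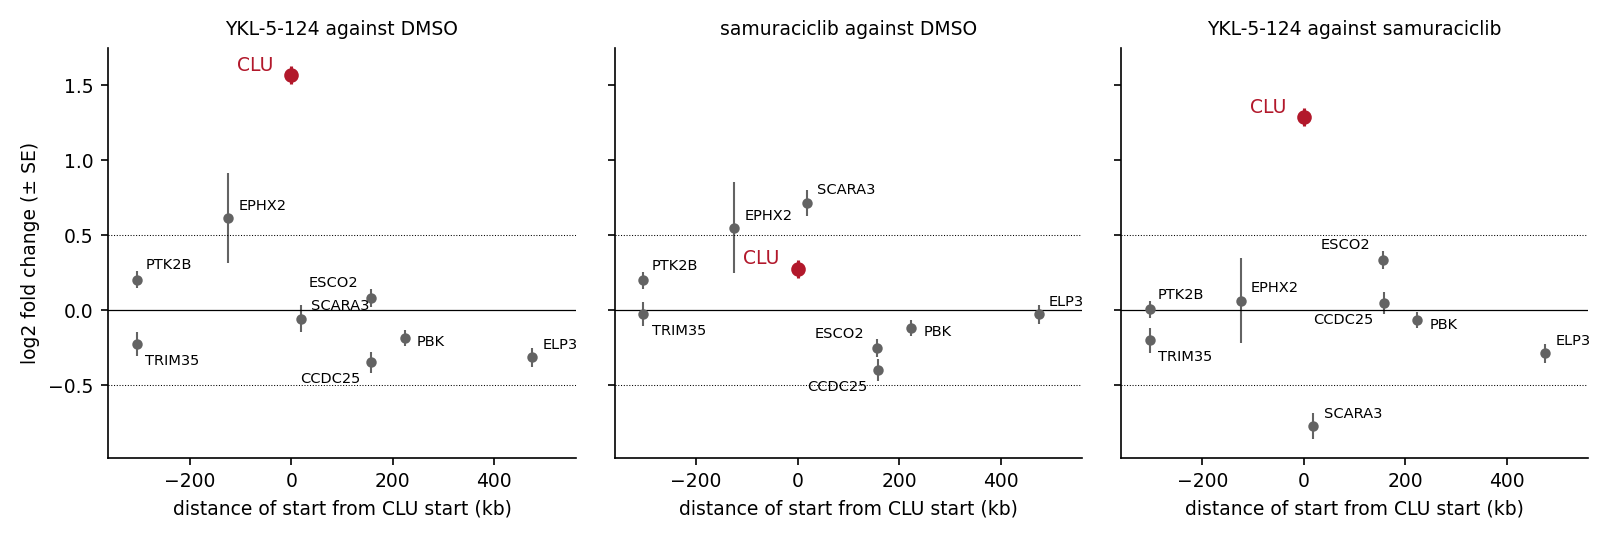
Log2 fold change with its SE (vertical axis) of CLU, in red, and of the 8 tested protein-coding neighbours against the distance of their start from that of CLU in kb (horizontal axis), for YKL-5-124 against DMSO, samuraciclib against DMSO and YKL-5-124 against samuraciclib from left to right. Dotted lines mark the fold threshold of 0.5, CLU is far above them in the left and right panels, and SCARA3 is above the upper line in the middle panel and under the lower line in the right one.

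Strand settings of the counting are not given in the sources used here, so reads of genes on opposite strands that overlap cannot be told apart. Beside TIMP3 and TLCD1, this touches VLDLR (56.3% of its span under another model), HSPA1B (56.4%), SLC1A3 (43.2%), CCDC25 (60.5%), CD59 (58.1%), HSPD1 (55.5%), HSPA2 (43.5%), BCL2L2 (69.3%), STUB1 (45.3%), DNAJB4 (99.1%) and PLPP6 (all of its span, within SPATA6L), but not CLU, whose sole overlapping model had no count.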

How the data were processed

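Poly(A)-selected RNA from 9 FaDu cultures was sequenced in read pairs. The deposited counts are whole numbers of read pairs per gene that the authors assigned with featureCounts 2.0.6 after HISAT2 alignment to GRCh38, without normalization. A gene length in bases (other) comes with the deposited table. The annotation release and strand setting are not given in the sources used here.

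Groups were taken from the labels. Genes passing filterByExpr (16065) were fitted in edgeR 4.0.16 (TMM, glmQLFit, glmQLFTest) over all 9 libraries without covariates, with a biological coefficient of variation of 0.0631. Calls needed a Benjamini-Hochberg adjusted p below 0.05 and a log2 fold change beyond 0.5. SEs are the log2 fold change over the root of F. CLU, the gene lists and the rules were chosen with earlier results of these data known.

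Named genes are CLU, from each list up to 4 called members (lowest adjusted p), genes with a known link to clusterin (FURIN, LRP2, LRP8, VLDLR, HSF1, BAX, XRCC6, CD59, APOE, HSPA1A, HSPA5, EGR1, MYC, MYBL2, CDK7), the 10 most similar profiles and protein-coding genes within 500 kb. Some of these genes are counted in their lists but not reported here by name. The fit was tested on simulated data. Alternatives were DESeq2 1.42.0, other scalings, filters and thresholds, a replicate block and left-out libraries. R 4.3.3 and Python 3.11.15 were used.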

Additional observations from a re-analysis of the deposited data

How the results depend on the processing

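The direction of CLU was the same under every alternative run. Its log2 fold change was 1.52 to 1.63 for YKL-5-124 against DMSO, 0.23 to 0.34 for samuraciclib against DMSO and 1.25 to 1.32 for YKL-5-124 against samuraciclib when each library was left out in turn, and 1.65, 0.35 and 1.30 in the 6 libraries with ample 7SL RNA. Scaling by library size alone gave 1.70 and 1.36 for YKL-5-124 against DMSO and against samuraciclib. With a replicate block the values were 1.57, 0.28 and 1.29, and the replicate block called 1897 genes higher and 1597 lower, 1282 and 1543, and 709 and 392 in the same comparisons. Deviations from the group means correlated between same-numbered libraries at -0.06 to 0.17, and not every library correlated best with its own number, so the numbers were not taken as pairs.

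Counts over all genes depended on the rule. For YKL-5-124 against DMSO, 1911 genes were called higher and 1595 lower, against 1727 to 1991 and 1526 to 1626 with a library left out, 696 and 762 when the test itself required a change beyond 0.5 (glmTreat), 814 and 434 beyond a log2 of 1, 2802 and 1052 by library size alone, and 1218 higher at a mean count of at least 50. For samuraciclib against DMSO, 1312 were called higher and 1535 lower, against 1198 to 1329 and 1443 to 1562 with a library left out, 411 and 571 with glmTreat, 471 and 374 beyond 1, and 1622 and 1219 by library size alone. For YKL-5-124 against samuraciclib, 717 were called higher and 395 lower, against 554 to 709 and 348 to 396 with a library left out, 38 and 33 with glmTreat, 194 and 70 beyond 1, and 982 and 253 by library size alone. Fewer genes tested or a stricter threshold accounts for the smaller counts by construction, and the cause of the shift with scaling was not tested.

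Of 13370 values of named and listed genes under 18 alternatives, none reversed, 179 lost the call and 86 gained it. With glmTreat, calls between the compounds were lost for HSPA1A, ERO1B, TIMP3, SERPINA1, VLDLR, NEU1, GAA, BCL2 and SCARA3, among others. By library size alone, 6 of 15 complement genes were called higher with YKL-5-124 against DMSO instead of 3, 4 of 21 apoptosis genes instead of 2, and neither HSPD1 nor STUB1 was called lower. Genes under 1 CPM (APOD, CFP, HSPB8) are limited by depth.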
